A study of Homo sapiens with 9 samples.

Results

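MYC and its downstream neighbour PVT1 lie on chromosome 8 inside a long stretch with few protein-coding genes, and the contacts of this stretch were compared between growing IMR90 cells and IMR90 cells in RAS-induced senescence (RIS). The region was defined by position alone, on hg19. The 40 kb bin of the Hi-C matrices that holds MYC spans 128720001 to 128760000, and the 8 bins that PVT1 fills in the definition used here span 128800001 to 129120000. These 9 bins stand in a window from 126480001 to 131520000, every bin of which could be used, and among 69621 usable bins on 23 chromosomes. The upstream flank is the 28 bins from 127600001 to 128720000, between LRATD2 and MYC, and the downstream flank is the 41 bins from 129120001 to 130760000, between PVT1 and GSDMC.

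IMR90 is a line of normal human lung fibroblasts with a finite lifespan. Every library came from cells stably infected with ER:HRAS(G12V), an oncogenic RAS fused to the oestrogen receptor so that 4-hydroxytamoxifen (4OHT) switches it on. The 3 growing libraries received no 4OHT, and the 2 RIS libraries were taken after 6 days in 100 nM 4OHT. An MSCV vector was added in growing replicate 3 and in no other library used here. Depth, as whole contacts recovered from the matrices, was 154318992, 175410468 and 180775315 for the growing libraries in order of replicate, and for RIS it was 109967509 and 150689993. The MYC bin itself took part in 6724, 7344 and 7190 contacts when growing and in 4771 and 5911 in RIS. Before balancing, the contacts of the MYC bin, relative to the median bin, differed by -0.03 (log2) between RIS and growing, with overlapping libraries. By the study's alignment summary, whose columns were matched by their order, the libraries also fell into 2 classes. Few duplicate reads were listed for growing replicates 1 and 2 and RIS replicate 1, and many for growing replicate 3 and RIS replicate 2. Both conditions occur in each class, and differences within a class are given where they matter. In the many-duplicate class each condition is a single library, and its growing library is the one with the added vector. Duplicates, vector and the deviation of a single library cannot be told apart there. The few-duplicate class also has a single RIS library.

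MYC encodes a transcription factor that, paired with MAX, drives genes for growth and the cell cycle. PVT1 is a long non-coding RNA gene whose promoter competes with that of MYC for enhancers in some cell types, and both are gained together in many cancers. The flanks are gene-poor, hold enhancers that differ between tissues, and contact MYC over long distances. Hi-C counts how often 2 stretches of DNA are ligated together in the nucleus, and a contact is given here as observed over expected (O/E): the balanced contact of a pair of bins over the mean at that distance on the same chromosome in the same library. An O/E of 1 is the level usual for the distance. In the annotation MYC runs from 128747680 to 128755197 and PVT1 from 128806772 to 129199347, both on the plus strand, so that the last part of PVT1 as annotated lies beyond the 8 bins. The other protein-coding genes of the window are LRATD2, POU5F1B, GSDMC, CYRIB and ASAP1. They share the window with 34 long non-coding RNA genes.

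Relative to what is usual for the distance, MYC in growing cells contacted both flanks more than it contacted PVT1. The MYC bin contacted the upstream flank at 1.97 times and the downstream flank at 3.91 times the expected level, and PVT1 at 0.924 times. In RIS the order was kept and the extremes drew nearer: the downstream flank was at 3.07 times, the upstream flank at 2.16 times and PVT1 at 1.11 times the expected level. Contacts of MYC with the downstream flank fell, those of MYC with PVT1 rose, and those with the upstream flank did not pass the test.

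Contacts of MYC with PVT1 rose. Over the block of 8 pairs the log2 O/E stood at -0.12, -0.16 and -0.07 for growing replicates 1 to 3, against 0.18 and 0.11 for the RIS pair of libraries. Both RIS libraries lay above all growing libraries. The difference was 0.26 ± 0.07 (log2, SE, by limma over 67593 anchors, adjusted p = 0.0248). To give a background, every usable bin of the genome was treated as MYC was, with blocks at the same distances, and 20.9% of these anchors passed the same test, 8.52% with a rise. The middle 90% of the anchors ran from -0.39 to 0.28, and the MYC value was inside that range. It rested on 472, 509 and 507 contacts when growing and on 412 and 454 in RIS. The call was lost when any library other than growing replicate 3 was left out. Adjusted p was 0.0604 without growing replicate 1 and 0.0768 without growing replicate 2 (limma), where 12.9% and 11.7% of anchors passed. Fewer anchors than with all libraries also passed without either RIS replicate, which leaves a single RIS library. For this and every other single value, the 5 libraries allow no exact permutation p below 0.1, two-sided, which this block reached.

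Contacts of MYC with the downstream flank fell. The block of 41 pairs was at a log2 O/E of 1.93, 1.93 and 2.05 in the growing libraries and at 1.56 and 1.68 in RIS. No RIS library reached the lowest growing library. The difference was -0.35 ± 0.07 (log2, SE, by limma, adjusted p = 0.00925), which is 0.786 times the growing level, and 20.9% of anchors passed in the same block, 8.92% with a rise and 12% with a fall. The middle 90% of anchors ran from -0.64 to 0.38, which takes in the MYC value. The recovered contacts were 1967, 2099 and 2188 in growing and 1000 and 1197 in RIS. It was -0.37 within the libraries with few duplicates and -0.37 within those with many. Without RIS replicate 1 it was -0.29 and no longer called, in a fit with a single RIS library where fewer of all anchors passed.

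Contacts of MYC with the whole upstream flank did not pass the test. They stood at a log2 O/E of 1.00, 0.96 and 0.99 in growing and 1.11 and 1.11 in RIS, a difference of 0.13 ± 0.05 (SE, by limma, adjusted p = 0.0582), where 25.2% of anchors passed. Both RIS libraries were above all growing libraries. The 12 bins nearest to MYC gave 0.45 (limma, adjusted p = 0.00248, where 24.6% of anchors passed). Run on the recovered contacts of the whole flank, voom, limma's test for counts, gave 0.26 (adjusted p = 0.00139, where 36.2% passed). For a block, here and below, voom takes the sum of contacts, neither balanced nor divided by the level expected for the distance. Near pairs weigh more in that sum, so its change is not the same quantity as that of the O/E.

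**Figure D1:**
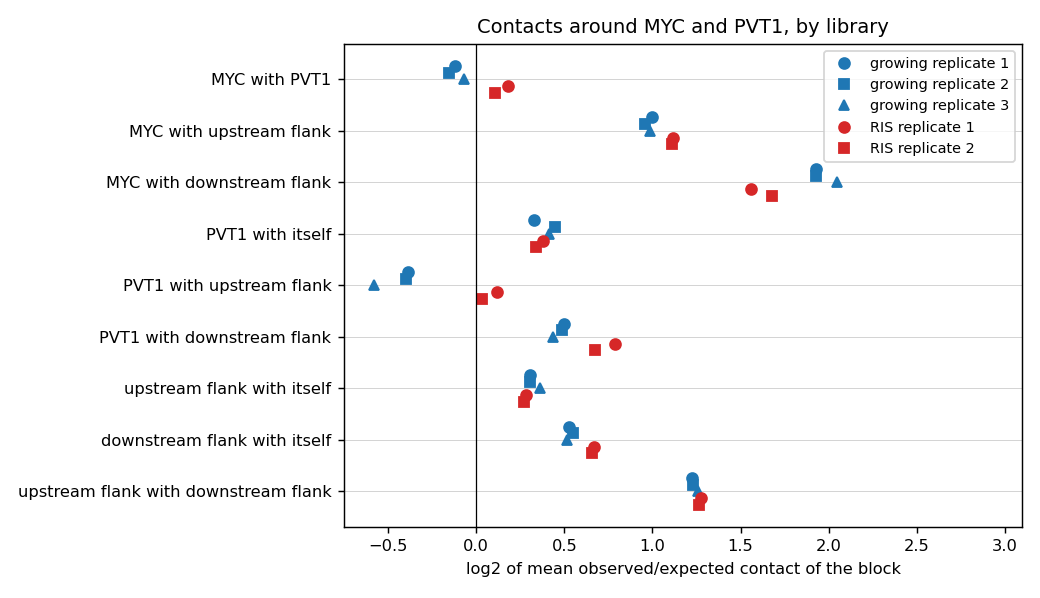
Contacts in the 9 blocks, one point per library. The x axis is the block's mean observed/expected contact as log2, where 0 is the level usual for the distance; blue points are the 3 growing and red points the 2 RIS libraries. The RIS points lie left of all growing points for MYC with the downstream flank and right of them for MYC with PVT1 and for PVT1 with the upstream flank.

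Contacts of PVT1 with the upstream flank rose. The 8 PVT1 bins contacted the upstream flank at a log2 O/E of -0.39, -0.40 and -0.58 when growing, against 0.12 and 0.03 in RIS. The RIS libraries stood above all growing libraries by more than the growing libraries differed among themselves. The difference of 0.53 ± 0.06 (log2, SE, by limma, adjusted p = 3.99e-05) took these contacts from 0.728 to 1.05 times the expected level. It was 0.52 within the few-duplicate and 0.61 within the many-duplicate libraries. At 53.1% of anchors this block passed the test, but the middle 90% of all 65477 anchors ran from -0.42 to 0.28, and the PVT1 value was above that range.

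Contacts of PVT1 with the downstream flank also rose, from 0.50, 0.49 and 0.44 (log2 O/E) in growing to 0.79 and 0.67 in RIS. The difference was 0.26 ± 0.04 (SE, by limma, adjusted p = 0.000491) against 52.4% of anchors that passed, and it lay inside the middle 90% of anchors, from -0.40 to 0.28. It was not seen in the 12 flank bins nearest to PVT1, where the difference was -0.03 (limma, adjusted p = 0.484), nor called by voom on recovered contacts, which gave 0.07 (adjusted p = 0.320). With the downstream flank as a whole, the changes of MYC and of PVT1 had opposite signs, and the difference between them was not tested. Contacts of the PVT1 bins with each other were 0.33, 0.45 and 0.41 in growing and 0.38 and 0.34 in RIS, with overlapping libraries (difference -0.04 ± 0.03, SE, by limma, adjusted p = 0.401), where 50.8% of anchors passed. With PVT1 taken to its annotated end this difference was -0.11 and was called (limma, adjusted p = 0.0101), where 52.1% of anchors passed.

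The downstream flank gained contacts with itself, from 0.53, 0.55 and 0.52 (log2 O/E) to 0.67 and 0.65, a difference of 0.13 ± 0.02 (SE, by limma, adjusted p = 0.000285), where 61.2% of anchors passed. By voom on recovered contacts this was 0.04 and not called (adjusted p = 0.292). The upstream flank with itself differed by -0.05 ± 0.02 (adjusted p = 0.0859), with both RIS libraries below the growing ones, where 59.4% of anchors passed, and with means of log2(O/E + 0.1) it differed by -0.18 and was called (adjusted p = 7.06e-05), where 59.2% of anchors passed and the median anchor changed by -0.05, while the flank cut to the 12 bins nearest to MYC gave 0.09, called in the other direction (adjusted p = 0.0116), where 53.75% passed. The flanks contacted each other at 1.23, 1.23 and 1.26 in growing and 1.27 and 1.26 in RIS (difference 0.03 ± 0.06, SE, adjusted p = 0.678), close together though not overlapping, where 58.1% of anchors passed. With means of log2(O/E + 0.1) this difference was -0.17 and was called (adjusted p = 0.0400), where 61.5% of anchors passed and the median anchor changed by -0.20. These adjusted p-values are from limma.

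**Figure D2:**
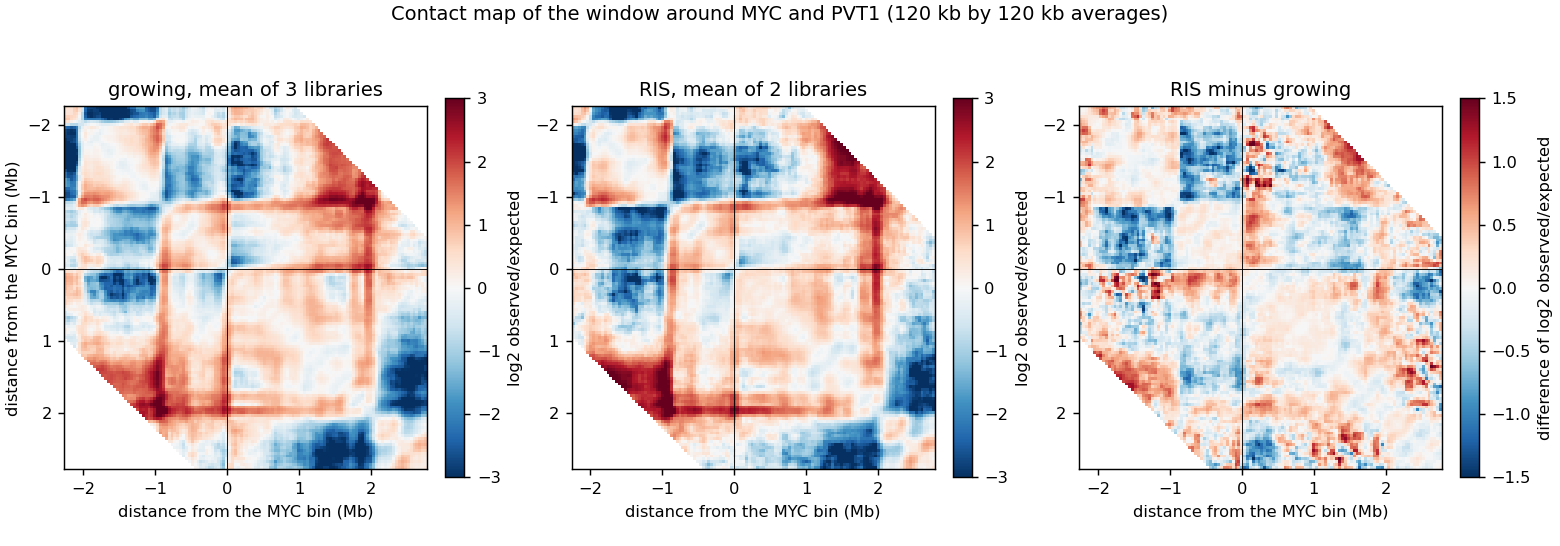
Contact maps of the window, with the distance of each bin from the MYC bin in Mb on both axes. The left and middle panels give the log2 observed/expected contact as the mean of the growing and of the RIS libraries and the right panel their difference, each averaged over 120 kb by 120 kb; pairs beyond the computed distance are white. Contacts of the bins just downstream of MYC with the upstream flank are redder in the difference. Those of MYC with the middle of the downstream flank, short of its last 7 bins, are bluer.

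Single pairs of bins gave the values of MYC along the flanks, with none called by limma. Of the 25 bins of the upstream flank whose pair with MYC was deep enough to test, 13 had both RIS libraries above all growing libraries in O/E and 2 had both below, while over all 2004058 pairs tested 14.8% lay above and 15.6% below. Of the 41 downstream bins, 25 had both RIS libraries below and 3 both above. In a run of 32 bins that starts 480 kb downstream of MYC, with limits set after the values were seen, 31 pairs had a negative log2 change (median -0.51), and 25 had RIS libraries below all growing ones. Upstream, all 12 pairs within 480 kb had a positive change (median 0.42).

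The 4 strongest long-range partners of MYC in growing cells were toward the far ends of the flanks, and the fifth, the bin from 130000001 in the middle of the downstream flank, went from 6.73, 3.81 and 7.31 to 2.25 and 3.40. Beyond 200 kb, the bin from 130680001, 1960 kb downstream and overlapping the end of CCDC26, a long non-coding RNA gene, led in both conditions. There the O/E reached 11.1, 10.8 and 9.46 when growing, against 12.2 and 13.4 in RIS. The next bin outward, from 130720001, was at 8.06, 8.61 and 7.35 in growing and 9.97 and 9.47 in RIS. In both of these bins the RIS libraries were above the growing ones. The bin from 130520001, 1800 kb away inside CCDC26, overlapped between conditions at 8.61, 7.50 and 9.75 in growing and 7.90 and 8.38 in RIS. Upstream the highest bin in growing cells was that from 127840001, 880 kb away inside PCAT1, another long non-coding RNA gene, at 7.15, 5.30 and 6.27 in growing and 5.61 and 4.70 in RIS, again overlapping. In RIS the highest upstream bin was the next one, from 127880001, at 4.87, 5.04 and 5.26 in growing and 6.45 and 5.49 in RIS. None of these 6 pairs was called (limma).

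By limma on balanced values, no pair with MYC or PVT1 passed. Over the genome this test called 2 pairs, 9.98e-05% of 2004058. Of the 76 pairs tested with the MYC bin 22 had an unadjusted p under 0.05, and of the 514 with PVT1 bins 95 did, as did 229537 of all 2004058 pairs. Run on recovered contacts, voom called 9 of 76 with MYC (11.8%) and 13 of 514 with PVT1 (2.53%), against 1.24% of all pairs (0.841% higher and 0.403% lower). That share of all pairs is not matched for depth, and pairs with MYC were deeper than most. A mean scaled value of at least 10 was reached by 73 of the 76, by 366 of the 514 and by 1360938 of all 2004058. Before balancing, the MYC bin stood 0.79 (log2) above the median bin in growing. Whether depth accounts for the larger share was not tested. Leaving out RIS replicate 1 left 0 voom calls with MYC and 1 with PVT1, leaving out RIS replicate 2 left 1 and 2, and leaving out growing replicate 1 left 4 and 1. Leaving out growing replicate 2 left 8 and 7, and growing replicate 3 left 6 and 6. Over all pairs the share called by voom fell as well. It was 0.479%, 0.812% and 1.04% without growing replicates 1, 2 and 3, and lower still without either RIS library.

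The 5 pairs with MYC of smallest p lay on both sides. Upstream, the bin from 128520001, 200 kb away, went from an O/E of 1.42, 1.32 and 1.19 to 2.29 and 2.01. It rested on 221, 227 and 190 contacts in growing and 227 and 256 in RIS, and changed by 0.67 ± 0.14 (log2, SE, by limma, adjusted p = 0.289). The bin next to MYC, from 128680001, which holds part of the non-coding gene CASC11, went from 0.863, 0.930 and 0.804 to 1.12 and 1.14. Its change was 0.35 ± 0.08 (SE, by limma, adjusted p = 0.297). In both upstream bins each RIS library was above each growing library.

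Downstream, the bin from 130120001, 1400 kb away inside CCDC26, went from an O/E of 3.66, 4.28 and 4.22 to 1.52 and 0.923, on 27, 35 and 33 contacts in growing and 8 and 6 in RIS. Its change was -1.63 ± 0.32 (log2, SE, by limma, adjusted p = 0.285). The bin from 129360001, 640 kb away, went from 2.48, 1.85 and 1.82 to 0.985 and 0.880, a change of -1.08 ± 0.25 (SE, by limma, adjusted p = 0.299). The bin from 130280001, 1560 kb away, went from 5.44, 5.35 and 6.91 to 1.93 and 2.89, a change of -1.22 ± 0.28 (SE, by limma, adjusted p = 0.2996). In all 3 every RIS library was below every growing library. Except for the bin at 1560 kb, these pairs were among the 9 of voom. The other voom pairs were higher in RIS at 160, 360 and 480 kb upstream, the one at 360 kb over POU5F1B, a gene copied from a stem cell factor, and lower at 960 and 1280 kb downstream, both inside CCDC26.

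The study pairs MYC with enhancers in 3 of these bins, a choice made on the same libraries, so their direction is not independent evidence. Besides the bin from 128520001 above, the bin from 128480001 changed by 0.39 ± 0.19 (log2, SE, by limma, adjusted p = 0.473) and the bin from 128040001 by 0.35 ± 0.18 (SE, by limma, adjusted p = 0.491). In both the O/E was higher in each RIS library than in each growing library, at 1.43 and 1.95 against 1.28, 1.09 and 1.42 for the nearer and at 3.08 and 3.11 against 2.45, 2.28 and 2.42 for the farther.

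**Figure D3:**
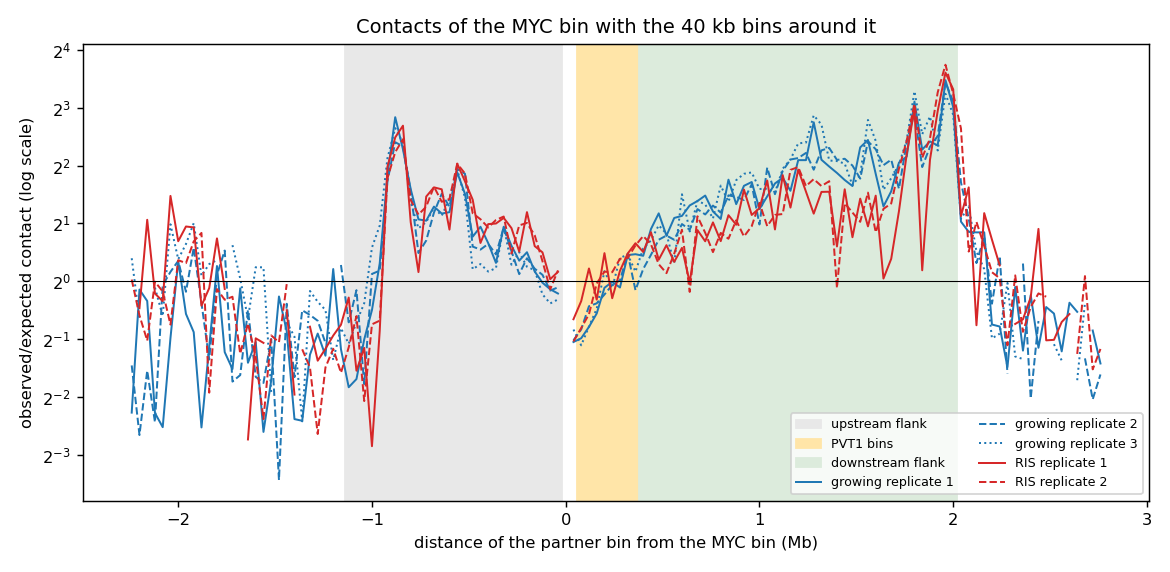
Observed/expected contact of the MYC bin with each 40 kb bin around it, by distance in Mb on the x axis and on a log scale on the y axis, one line per library (blue, growing; red, RIS). Pairs with no contact in a library leave a gap. The red lines run below the blue through the middle of the downstream flank, where 25 of the 32 pairs of the run that starts at 480 kb do not overlap, and meet or pass them at the peaks 1800 to 2000 kb away.

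None of the 8 pairs of MYC with a PVT1 bin was called on its own, by limma or by voom. The first PVT1 bin, from 128800001, holding the PVT1 promoter, contacted MYC at an O/E of 0.505, 0.561 and 0.464 in growing and 0.788 and 0.570 in RIS. The bin from 129040001, near the other end, was at 1.37, 1.39 and 1.38 in growing and 1.39 and 1.32 in RIS, with overlapping libraries. Of the 8 PVT1 bins, 7 had a positive change with MYC (median 0.35), 3 had both RIS libraries above all growing ones and none both below. Where voom called 1.24% of all pairs, 0.841% higher, it called 8 of 182 pairs of PVT1 with the upstream flank (4.4%), all higher in RIS. One of them joined the PVT1 bin 200 kb from MYC to the flank bin 720 kb upstream of MYC, at a scaled value of 6.69, 7.54 and 6.84 in growing and 15.7 and 19.9 in RIS, on 12, 15 and 13 against 21 and 33 contacts. With the downstream flank voom called 5 of 274 (1.8%), near the share of all pairs, with 2 higher and 3 lower. The 3 lower ones joined PVT1 bins 80 and 160 kb from MYC to flank bins 400 and 440 kb from MYC, which hold the rest of PVT1 as annotated.

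More contacts crossed the edges of the MYC bin in RIS, as read by the insulation score. This score is the log2 of the mean contact across a bin edge over 520 kb on each side, relative to the chromosome, and a low score marks an edge that few contacts cross. The edge at 128760001, just past the end of the MYC bin, was a local minimum (a border) in all 5 libraries. There growing cells scored -0.92, -0.93 and -1.06, against -0.55 and -0.74 in RIS. Every RIS library was above every growing one, and the means differed by 0.32 ± 0.06 (log2, SE, by limma over 66066 edges, adjusted p = 0.000547). With 1 Mb on each side the difference was 0.17 (limma, adjusted p = 0.00651). The edge before the MYC bin, at 128720001, rose by 0.40 ± 0.06 (SE, by limma, adjusted p = 0.00011). Over the genome 56.5% of edges passed the test, and the middle 90% of changes ran from -0.30 to 0.21, below both edges of the MYC bin. Contacts across these edges include those of PVT1 and MYC with the near upstream flank and of MYC with PVT1, given above. The score at these edges is thus not separate evidence.

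The border upstream of MYC went the other way. The edge at 127840001, 880 kb before the MYC bin and inside PCAT1, scored -1.68, -1.61 and -1.28 in growing and -2.17 and -2.11 in RIS. It was a border in all 5 libraries, with both RIS libraries below all growing ones, and the 4 edges from 127760001 to 127880001 fell by 0.13 to 0.62. The difference was -0.62 ± 0.09 (log2, SE, by limma, adjusted p = 0.000132), below the range just given. Growing replicate 3, the library with the added vector, stood apart from the other growing libraries here, and without it the difference was -0.49. It was -0.52 within the few-duplicate and -0.83 within the many-duplicate libraries.

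Within the window 73 edges passed, which is 57.5% against 56.5% over the genome, 66 of them higher and 7 lower in RIS, where 28.1% of all edges were called higher and 28.4% lower. Across MYC a run of 14 edges from 128320001 to 128840001 was higher, and of the 11 edges from the start of the MYC bin to the end of the PVT1 bins, 4 were higher and 1, at 129080001, changed by -0.09 ± 0.03 (SE, by limma, adjusted p = 0.0174). The growing mean held 5 borders in the window and the RIS mean 6. Both had borders at 126720001, 127840001, 128760001, 130000001 and 130800001. The sixth, at 131080001 inside ASAP1, was called in both RIS libraries and in none of the growing libraries, although its score, -0.53 in each growing library and -0.59 in each RIS library, did not pass the test (limma, adjusted p = 0.184). With 240 kb on each side a border stood at the next edge, 131120001, in all 5 libraries. In the whole genome the same rule gave 4879 borders in growing and 5270 in RIS.

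**Figure D4:**
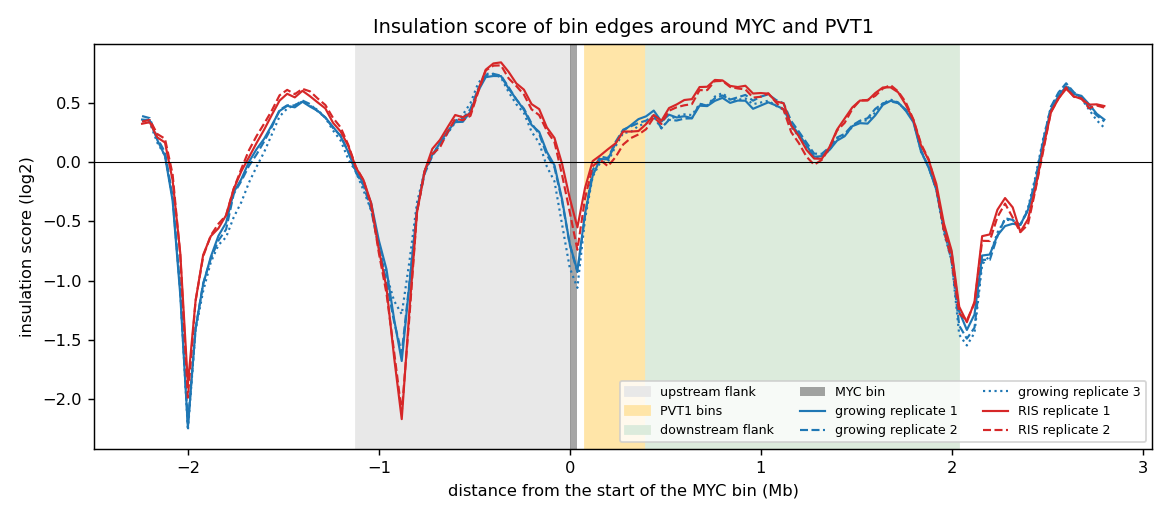
Insulation score (log2, y axis) of each bin edge by its distance in Mb from the start of the MYC bin, one line per library (blue, growing; red, RIS). The dip just past the MYC bin is shallower in RIS, at -0.55 and -0.74 against -0.92 to -1.06, and the dip 0.88 Mb upstream is deeper, at -2.17 and -2.11 against -1.28 to -1.68.

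The compartment score, the first component of the contact pattern of each chromosome in 120 kb bins, places a bin with active (A, above 0) or inactive (B, below 0) chromatin. The bin with MYC, from 128640001 to 128760000, was in A throughout, at 0.63, 0.45 and 0.25 (in SD units) when growing, against 0.98 and 0.96 in RIS. RIS was above growing in every library and the growing libraries spread more widely than the RIS ones. The score rose by 0.52 ± 0.10 (SE, by limma over 23543 bins, adjusted p = 0.00669), and 39.9% of all bins passed, 17.9% with a rise. The middle 90% of all bins changed by -0.37 to 0.49, so the MYC value was just above that range and the change of each PVT1 bin was inside it. The call was lost without RIS replicate 1 (change of 0.51) or RIS replicate 2 (0.53). These fits hold a single RIS library, and fewer of all bins passed in them.

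PVT1 had a higher score than MYC, and 1 of its 3 bins passed the test, with a lower score in RIS. Its first 120 kb bin, from 128760001, went from 1.16, 1.25 and 1.32 to 1.04 and 1.06, a change of -0.19 ± 0.06 (SE, by limma, adjusted p = 0.0403). The next, from 128880001, went from 1.22, 1.45 and 1.44 to 1.16 and 1.15 (adjusted p = 0.0508), and the third, from 129000001, changed by -0.09 ± 0.06 (adjusted p = 0.25; both limma). All RIS libraries lay below all growing libraries in these 3 bins. The mean score in RIS was 0.97 for the bin with MYC and 1.05 to 1.16 for PVT1, and in growing it was 0.44 and 1.17 to 1.37. A fall from a high score was not particular to PVT1. The bins from 131160001 and 131280001, inside ASAP1, went from means of 1.64 and 1.48 to 1.29 and 1.25. The bin from 130920001 was at 1.24 in both conditions. The shares of all bins given for MYC and the flanks are not matched for the score in growing. Whether the change follows that score was not tested.

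Many bins of both flanks had a higher score in RIS. Of the 42 bins of 120 kb in the window 29 passed, 26 of them higher and 3 lower in RIS, where over the genome 39.9% passed, 17.9% higher and 22% lower. Upstream, a run of 12 bins from 126720001 to 128040001, which starts before the flank, rose by 0.31 to 0.47. Its last 2 bins, where growing replicate 3 was the lowest of the growing libraries, changed by 0.28 and 0.34 within the few-duplicate libraries. Within the many-duplicate libraries they changed by 0.76 and 0.78. The 4 bins from 128160001 to 128520001, next to the bin with MYC, did not pass. Downstream, 9 bins from 129240001 to 130200001 rose by 0.25 to 0.56 and 4 from 130440001 to 130800001 by 0.28 to 0.61, the last of them beyond the end of the flank. The bin from 129960001 inside CCDC26, chosen after its values were seen, went from -0.06, -0.07 and -0.26 to 0.37 and 0.29 (0.46 ± 0.09, SE, by limma, adjusted p = 0.00608).

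**Figure D5:**
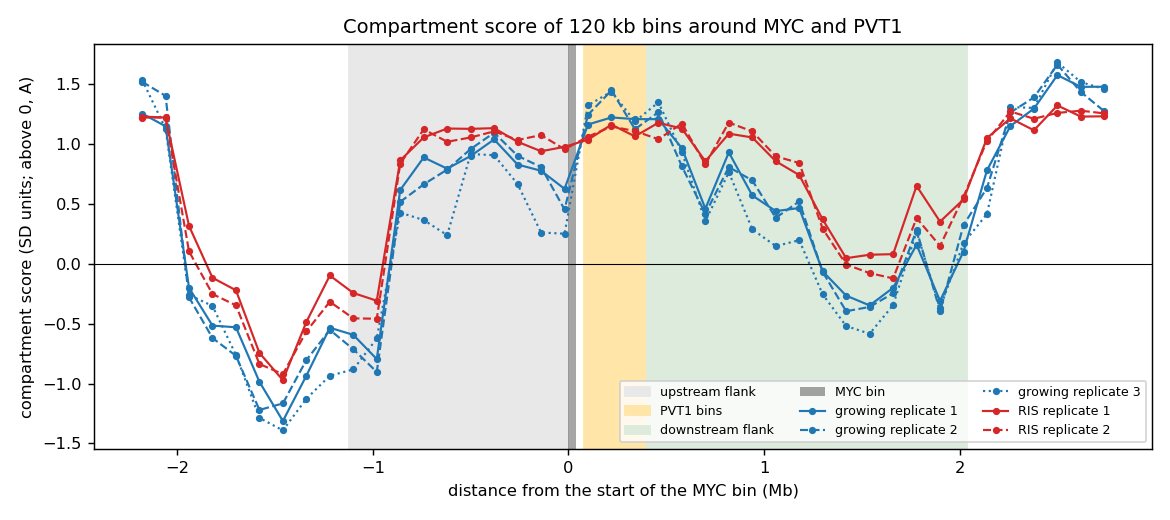
Compartment score (SD units, y axis; A above 0) of each 120 kb bin by distance in Mb from the start of the MYC bin, one line per library (blue, growing; red, RIS). The RIS lines lie above the growing ones over most of both flanks and at MYC, where they read 0.98 and 0.96 against 0.25 to 0.63, and below them over PVT1.

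Beyond 2 Mb, pairs of 200 kb bins were tested along the chromosome, and 7.77% of 766513 pairs passed over the genome, 4.32% higher and 3.46% lower in RIS (by voom 13%, with 8.71% higher). The 200 kb bin with MYC, from 128600001, had 2 of 45 pairs called (limma), which is 4.44%. The pair with the bin from 125800001 rose, from a scaled value of 29.3, 27.6 and 22.7 to 52.2 and 45.3 (0.88 ± 0.24, log2, SE, adjusted p = 0.0406), and the pair with the bin from 131800001 fell, from 40.6, 31.5 and 39.8 to 15.9 and 16.3 (-1.13 ± 0.26, SE, adjusted p = 0.0258). Of the pairs of MYC, 39 had a partner in A and 6 a partner in B in growing cells. Their median change was 0.08 and -1.42, with 1 pair called in each. At a minimum mean scaled value of 20, 13 of the 45 pairs were left. The mean is taken over 3 growing and 2 RIS libraries, so a low pair can enter on its growing values alone. No fall is therefore read from the median of the few pairs in B, here or for PVT1 below.

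At this range called pairs of PVT1 were lower in RIS. Of 108 pairs of its 200 kb bins 10 were called, all lower in RIS, which is 9.26%. All 10 had a partner in A, as did 105 of the pairs tested, with a median change of -0.26, and the 3 pairs with a partner in B had a median of -0.48. Of all pairs of the genome 3.46% were called lower. The largest changes were with bins inside ASAP1 and beyond it. The bin of PVT1 from 128800001 went from 102, 71.3 and 103 (scaled value) with the bin from 131200001 in growing to 50.9 and 36.7 in RIS, a change of -1.12 ± 0.21 (log2, SE, by limma, adjusted p = 0.0133). The PVT1 bin from 129000001 changed by -1.06 ± 0.22 with the bin from 131600001 and by -1.04 ± 0.20 with that from 131200001, both with every RIS library below every growing one. Upstream, it fell with the bins from 126000001 and 126200001, by 0.86 ± 0.21 and 0.65 ± 0.17 (SE, by limma, adjusted p = 0.0300 and 0.0397). With any library left out, the share called over all pairs fell as well, to 4.13%, 2.70% and 3.15% without growing replicates 1, 2 and 3. Leaving out growing replicates 1, 2 and 3 in turn gave 4, 5 and 4 calls with PVT1 and 0, 1 and 0 with MYC. Leaving out RIS replicates 1 and 2 gave 5 and 6 with PVT1 and 2 and 4 with MYC. All of these calls with MYC were lower in RIS, so that the rise with the bin from 125800001 was called in none of these 5 fits, nor with the replicate block or without the trend of the variance described next. Without a trend of the variance on abundance there were 0 calls with PVT1, where 2.69% of all pairs were called.

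The MYC bin kept most of its contacts near by. Within 2 Mb lay 87.9%, 86.9% and 86.1% of its balanced contacts in growing and 85.9% and 86.3% in RIS, while the median bin of the genome had 64.9% there in growing. The libraries overlapped in this share (exact permutation p = 0.3, two-sided). Other chromosomes took 4.03%, 3.78% and 3.70% when growing, against 5.26% and 6.37% in RIS, a rise of 1.98 percentage points (exact permutation p = 0.1, two-sided). The genome's median bin rose by 2.81 percentage points in the same share. PVT1 kept 74.1%, 75% and 72.7% within 2 Mb in growing and 74.3% and 76.7% in RIS, and its share beyond 2 Mb on chromosome 8 fell from 15.7%, 15.8% and 17.8% to 14.1% and 12.6% (exact permutation p = 0.1, two-sided). That is a change of -3.10 percentage points, -1.69 within the few-duplicate and -5.17 within the many-duplicate libraries, and the genome's median bin changed by -1.63.

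Genes of the MYC network, taken as a list of 12 relatives and partners, were read at their own starts in the same fits. For insulation, 4 of the 10 that could be computed passed, 1 higher and 3 lower in RIS, where 56.5% of edges did. For the compartment score 6 of 12 passed, 1 higher and 5 lower, beside 39.9% of all bins. MYCN, the neuronal MYC gene, was the one that rose in both, by 0.16 ± 0.04 in insulation (log2, SE, by limma, adjusted p = 0.00529) and from -0.76, -0.83 and -0.69 to -0.42 and -0.38 in compartment score (0.36 ± 0.08, SE, by limma, adjusted p = 0.00882), and stayed in B. MAX, the partner of MYC, and MYCL did not pass in either. The score of MXD3, which competes with MYC for MAX, fell from 1.16, 1.13 and 1.32 to 0.82 and 0.80 (-0.39 ± 0.07, SE, by limma, adjusted p = 0.00462). The compartment scores of MXD1, MGA, MLXIP and MLXIPL also fell, by 0.17 to 0.27. These genes and MXD3 had high means in growing, from 1.15 to 1.33, as had MYCL, at 1.28, which did not pass. The share of all bins is not matched for that level. In insulation MXD4, MLX and MGA fell by 0.15, 0.18 and 0.08.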

How the data were processed

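In situ Hi-C libraries of growing (3) and RIS (2) cells were analysed, and 4 capture Hi-C libraries were not used because no captured region lies in the window. Per the labels' processing notes the authors used HiC-Pro, FastQC and hg19, and they deposited ICE-balanced signal per pair of 40 kb bins, which evens out the coverage of bins. With 1 factor estimated per bin, 100% of values came back as whole contacts (within 0.05), which gave the depth and the input of voom. These totals do not match the library totals in the study's alignment summary, so they are the contacts in the deposited matrices and not the sequencing depth. The duplicate classes come from that summary and were not checked in the matrices.

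O/E, insulation score (520 kb), borders (prominence of at least 0.1), compartment score and pair values were computed with Python 3.11.15 (numpy 2.4.6, scipy 1.17.1, pandas 2.3.3) from these signals. The expected value is the mean over usable pairs at that distance. Blocks, insulation, compartment scores and pairs were tested over the genome with limma 3.58.1 (R 4.3.3, lmFit, eBayes with a trend) and Benjamini-Hochberg at 5%. The voom fits used no such trend. Borders were not tested, and shares of contacts had the exact permutation test only. Anchors, edges and neighbouring bins overlap and are not independent. Pairs entered at a mean scaled value of at least 5 (40 kb, up to 2 Mb) or 10 (200 kb), as log2(value + 0.5) after loess on abundance (span 0.3, 4 iterations), so a change of a low pair is understated. Balanced values were scaled by 1 constant for all libraries. For pairs the trend was not part of the design: it was taken after the counts without it (906 pairs of 40 kb and 20590 of 200 kb over the genome) had been seen, and those with it were 2 and 59583. The fits were tested on simulated data. The region, lists and tests were chosen with earlier results of these data known.

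MYC, PVT1 and the protein-coding genes of the window are named, with the MYC network genes that passed and MAX, MYCN and MYCL, the 5 pairs with MYC of smallest p at 40 kb, and the called pairs of largest change at 200 kb. Bins described as partners by O/E, and the voom pairs, were chosen after their values were seen. Genes are from GENCODE on GRCh37, whose chromosome 8 has the length of that in the files. The ± values are limma's SE, in which the spread between libraries is drawn toward that of the other anchors, edges, bins or pairs. They can exceed the spread of the libraries, as between the flanks, at 0.06 against SDs of 0.017 in growing and 0.007 in RIS. The annotated end of PVT1, the duplicate class as a block, the pair fits without a trend, and voom with libraries left out or with blocks were alternatives chosen after seeing the data.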

Additional observations from a re-analysis of the deposited data

How the results depend on the processing

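With the 3 and 2 libraries here, the blocks, insulation and compartment values kept their direction whichever library was left out. The change ran from 0.22 to 0.30 for MYC with PVT1, -0.41 to -0.29 for MYC with the downstream flank, 0.12 to 0.14 for MYC with the upstream flank, 0.42 at most and 0.23 at least for the insulation of the 3′ edge of the MYC bin, -0.69 to -0.49 for the upstream border and 0.43 to 0.61 for the compartment score. The shares of MYC contacts ran from -1.31 to -0.42 percentage points within 2 Mb, -1.82 to -0.37 beyond and 1.42 to 2.53 with other chromosomes. Calls at 40 kb ran from 0 to 0 for MYC and PVT1 and 0 to 1 in the window, at 200 kb from 0 to 4 for MYC and 4 to 6 for PVT1, and borders from 5 to 6 in growing and 6 to 6 in RIS.

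The libraries with many duplicates alone gave 0.17 for MYC with PVT1, -0.83 at the upstream border, 0.151 points within 2 Mb (opposite in sign) and -2.82 beyond, and those with few gave 0.129 beyond (opposite in sign). The 12 bins nearest gave 0.45 for MYC with the upstream flank, -0.032 for PVT1 with the downstream flank, 0.090 for the upstream flank with itself and -0.10 between the flanks, the last 3 opposite in sign and of these the upstream flank with itself now called. Means of log2(O/E + 0.1) gave -0.17 between the flanks, opposite in sign, and -0.18 for the upstream flank with itself, both now called, while the median anchor changed by -0.20 and -0.05 under this measure. By voom the upstream flank with itself was at 0.073, opposite in sign, the downstream flank with itself at 0.04, no longer called, and MYC with the upstream flank at 0.26. The causes were not tested.

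At 40 kb voom called 9, 13 and 71 pairs for MYC, PVT1 and the window, and with the duplicate class as a block 9, 21 and 94. Over libraries left out these ran from 0 to 8, 1 to 7 and 3 to 47, with 29 and 39 in the window without growing replicates 1 and 3. At 200 kb voom called 4 for MYC, and 1 to 6 for MYC and 0 to 12 for PVT1 over libraries left out. The share of all pairs that voom called also fell with each library left out, at both bin sizes. Without the trend there was 1 call in the window at 40 kb and 0 for PVT1 at 200 kb, where 0.0452% and 2.69% of all pairs were called. An insulation window of 1 Mb gave 0.17 at the 3′ edge of the MYC bin, still called, and one of 240 kb gave 11 borders in growing and 14 in RIS.

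Growing and RIS share only the replicate numbers 1 and 2, and libraries of one number did not deviate together (correlations of 0.112 and -0.218 over insulation). With the replicate block, MYC with PVT1 changed by 0.28, MYC with the downstream flank by -0.31 and the compartment score by 0.43, and 0 pairs of MYC and 6 of PVT1 were called at 200 kb. Growing replicate 3 has no RIS partner in that block. For blocks, insulation and compartment the change is therefore the one found without growing replicate 3, and not a further check. With the replicate block voom called 5, 5 and 37 pairs at 40 kb and 4 for MYC at 200 kb.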
